A study of Homo sapiens with 2 samples.

Results

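The enzymes that write, copy and remove methyl groups on cytosine were examined in REH and 697, established human BCP-ALL lines (acute lymphoblastic leukemia of B-cell precursors), each sequenced as 1 RNA library. The 9 genes were chosen by name: DNMT1, UHRF1, DNMT3A, DNMT3B, TET1, TET2, TET3, IDH1 and IDH2. The count files hold 57773 gene identifiers, and 8 of the 9 genes were matched to counts by their Ensembl identifier. UHRF1 was left out because its current identifier matched no row, and it is not analysed here.

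REH carries the ETV6/RUNX1 fusion and, as the study describes it, has lost the other ETV6 allele. The line 697 lacks this fusion. Both were grown untreated in RPMI with fetal bovine serum, and no group other than the cell line exists. Each line stems from a single leukemia and was sequenced once, so differences between REH and 697 cannot be told apart from differences between cultures or library preparations, and no test between the lines was possible.

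In mammals, DNA methylation sits mainly on cytosines that are followed by guanine (CpG). DNMT3A and DNMT3B place new methyl groups, and DNMT1, brought to replicated DNA by UHRF1, copies the pattern to the new strand after each division. TET1, TET2 and TET3 oxidise 5-methylcytosine, a reaction that needs 2-oxoglutarate and leads to loss of the mark. IDH1 in the cytosol and IDH2 in mitochondria make 2-oxoglutarate from isocitrate. TET2, DNMT3A, IDH1 and IDH2 are recurrently mutated in myeloid malignancies, where mutant IDH enzymes make 2-hydroxyglutarate, an inhibitor of TET proteins. Mutations cannot be seen in gene-level counts.

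The data showed a contrast within this machinery. TET1 and TET2 were expressed in REH and were represented by only 2 and 3 reads in 697, while TET3 was at a similar level in both lines. The genes DNMT1, DNMT3A and IDH1 differed little. DNMT3B and IDH2 were higher in 697, with log2 ratios of -0.97 and -0.59. DNA methylation itself was not measured in these libraries.

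The DNA before the TET genes is shown first, because CpG cytosines are the substrate of these enzymes and the TET genes are where the lines parted. The sequences are the 250 bases before the first annotated start of each gene from RefSeq on GRCh38.p14, all on the plus strand, written 5′ to 3′. Capitals mark each CpG.

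TET1 (chr10:68560087-68560336): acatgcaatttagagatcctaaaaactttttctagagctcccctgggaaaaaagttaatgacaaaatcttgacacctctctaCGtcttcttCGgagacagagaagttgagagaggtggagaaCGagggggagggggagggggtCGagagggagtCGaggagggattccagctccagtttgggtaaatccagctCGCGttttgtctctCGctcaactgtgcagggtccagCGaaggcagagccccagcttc
TET2 (chr4:105145625-105145874): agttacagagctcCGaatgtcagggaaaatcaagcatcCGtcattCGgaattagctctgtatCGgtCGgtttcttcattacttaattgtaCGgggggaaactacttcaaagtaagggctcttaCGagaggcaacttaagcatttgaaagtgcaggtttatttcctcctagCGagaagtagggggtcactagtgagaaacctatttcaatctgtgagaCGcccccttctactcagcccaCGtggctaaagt
TET3 (chr2:73984660-73984909): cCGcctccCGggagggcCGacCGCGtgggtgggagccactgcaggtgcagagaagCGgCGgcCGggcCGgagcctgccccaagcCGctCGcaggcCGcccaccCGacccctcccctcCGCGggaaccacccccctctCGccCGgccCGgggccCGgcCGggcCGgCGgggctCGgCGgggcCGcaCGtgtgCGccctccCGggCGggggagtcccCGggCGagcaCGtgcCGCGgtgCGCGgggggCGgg

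The TET1 window held 9 CpGs and the TET2 window 10, which is the median of 10 over the first windows of 27326 genes. The TET3 window held 37, and 3.88% of all first windows held as many. A second annotated start of TET2, further into the gene, had 34 CpGs before it (6.62% of first windows held as many). The other 2 starts of TET1 had 4 and 11. The first RefSeq windows of the other enzyme genes held 3 CpGs for DNMT3B, 4 for IDH2, 12 for DNMT3A, 17 for IDH1, 21 for DNMT1 and 28 for UHRF1. Those of DNMT3B, IDH2, IDH1 and DNMT1 lie inside the gene positions given below. Their counts therefore do not describe the DNA before the outermost 5′ ends of these genes. A link between CpG counts and expression was not tested. CpG reads the same on both strands, and these counts describe the reference sequence, not the methylation state of either line.

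The REH library held 45188375 reads in genes and the 697 library 41097497, so both were deep for genes of this abundance. Multimapping reads were 10.8% and 15.4% of the libraries, and mitochondrial genes took 3.11% and 6.13% of gene reads. Reads fell evenly on the strands (50.1% and 50.2% on the strand of the gene), although the labels call the libraries stranded. Of 13 B-cell precursor markers, 13 had at least 10 reads in 697 and 12 in REH, the exception being VPREB1, the surrogate light chain gene, with 3 reads in REH and 10039 in 697. CD79B, part of the B-cell receptor, had 24198 reads in REH and 4443 in 697, or 481 and 120 CPM, just past a log2 ratio of 2. The sums of the list were 6240 and 8820 CPM in REH and 697. Of the T-cell, myeloid, erythroid and fibroblast lists, 6 of 14 genes had at least 10 reads in a library. The T-cell list summed to 0.935 and 0.298 CPM, the erythroid list to 0 and 0.0271 CPM and the fibroblast list to 9.49 and 10.5 CPM, with COL1A2, HBB, CD2 and CD3D at 0 in both libraries. The T-cell gene CD3E had 45 reads in REH and 0 in 697, CD8A had 0 and 10, and the collagen gene COL1A1 had 477 and 387. The myeloid list reached 253 CPM in REH against 2.25 CPM in 697, nearly all from MPO (12643 reads in REH and 12 in 697), while ELANE was at 0, LYZ at 1 and 2 reads, CD14 at 29 and 8 and CSF1R at 30 and 61. Of the genes of these 4 lists only MPO was named by rule, the others after their values were seen. Whether these differences have a part in the ratios below was not tested.

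Levels are given as CPM, reads per 1000000 gene reads, with library totals adjusted by the trimmed mean of M-values (TMM), and between genes as CPM per kb of annotated exon. A log2 ratio is REH over 697 with 0.5 reads added to each count, and the 95% interval after it is an exact interval for counting error alone. Among all 19145 genes tested, which reached 10 reads in REH, 697 or both, 20.7% differed by a log2 ratio of 2 or more, with 12.5% higher in REH and 8.15% higher in 697. Of the 8 enzyme genes, 2 (25.0%) passed it, with 2 higher in REH and 0 higher in 697. That is close to the background, so what stood out was which genes passed and how few reads they had, not how many. The remaining 6 had ratios between -0.97 and 0.25, and at a log2 ratio of 1 the count was still 2, against a background of 39.8%. DNMT3B, at -0.97 (-1.08 to -0.86), lay at the edge of this limit, so the count at 1 depends on the setting. The median log2 ratio was 0.04 for the 8 genes and 0.05 for all genes tested.

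**Figure D1:**
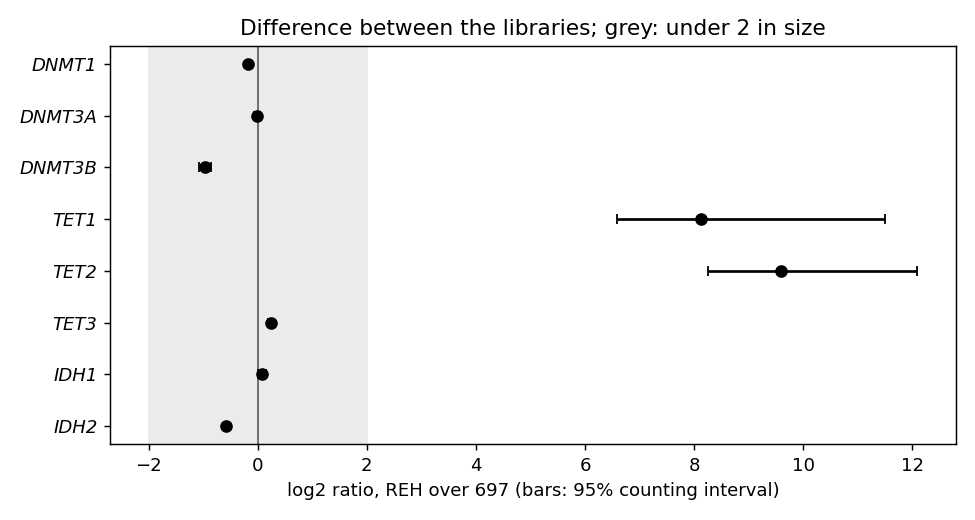
Log2 ratio of REH over 697 for each of the 8 enzyme genes, with points for the ratio and bars for the 95% counting interval; the grey band covers ratios under 2 in size. TET1 (8.13) and TET2 (9.59) lie far to the right of the band, and the other 6 genes lie between -0.97 and 0.25.

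TET2, the TET gene best known from blood cancers, had 3661 reads in REH and 3 in 697. This was 72.8 CPM in REH (95% Poisson interval 70.5 to 75.2) against 0.0812 CPM in 697 (0.0168 to 0.237). The 697 value equals the smallest level set as visible at this depth, which is 3 reads, so a lower level would not have been distinguishable from it. In bulk RNA, fewer expressing cells and less RNA per cell cannot be told apart. The log2 ratio was 9.59 (counting interval 8.26 to 12.09), and 104 of the 19145 genes tested had a higher ratio. The gene lies on chromosome 4 (105145875 to 105279816, GRCh38, plus strand). The antisense lncRNA TET2-AS1 inside it had 1 read in each library.

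TET1, the first TET enzyme to be described and a partner in some MLL fusions, had 951 reads in REH and 2 in 697. Its levels were 18.9 CPM (17.7 to 20.2) and 0.0541 CPM (0.00656 to 0.196). The log2 ratio was 8.13 (6.59 to 11.50), with 262 tested genes above it. TET1 lies on chromosome 10 (68560337 to 68694487, plus strand). COX20P1, a processed pseudogene within TET1 on the same strand, had 32 reads in REH and 1 in 697, while RPS3AP37, another, had 4 and 6. In REH the reads of both genes split evenly over the strands, with 50.4% of TET1 and 50.1% of TET2 reads on the strand of the gene.

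Such one-sided genes were uncommon. Of 8240 genes with at least 900 reads in REH, 115 (1.40%) had at most 3 reads in 697, among them TET1 and TET2. In the other direction, 92 of 7369 genes (1.25%) were of this kind. The limit of 900 reads was chosen after the values of TET1 had been seen.

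TET3, the third oxidising enzyme and one that acts in the early embryo, had 7408 reads in REH and 4592 in 697, or 147 CPM (144 to 151) and 124 CPM (121 to 128). The log2 ratio was 0.25 (0.19 to 0.30), a small difference in the same direction, and 57.7% of the genes tested had a lower ratio. TET3 lies on chromosome 2 (73984910 to 74108176, plus strand). An unnamed lncRNA that overlaps TET3 on the same strand (ENSG00000235499) had 168 and 101 reads. Some reads in shared stretches may not have been assigned to TET3, and their number was not determined.

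Per kb of exon, the TET genes in REH ran from TET3 at 11.4 CPM per kb through TET2 at 4.42 to TET1 at 1.97. TET3 thus made up 64.1% of the TET sum, TET2 24.9% and TET1 11.1%. In 697, TET3 held 99.9% of the sum (99.74% to 99.96%), with TET1 at 0.0586% and TET2 at 0.0513%. The last values had overlapping counting intervals and their order is not resolved. The TET sum was 17.8 CPM per kb in REH and 9.61 in 697, 1.85-fold higher in REH.

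**Figure D2:**
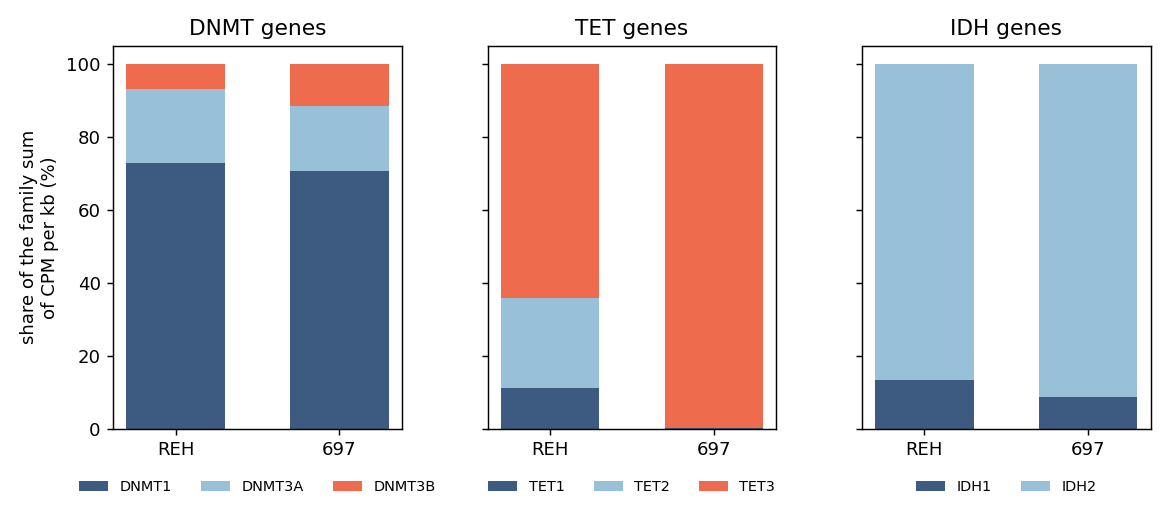
Share of each gene in the sum of CPM per kb of exon of its family (vertical axis, percent) in the REH and 697 libraries, for the DNMT, TET and IDH genes. TET3 fills 99.9% of the TET bar in 697 and 64.1% in REH, while DNMT3B fills 6.85% of the DNMT bar in REH and 11.6% in 697, and IDH1 13.3% and 8.79% of the IDH bar.

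Genes beside TET1 and TET2 were compared to see whether the lack of reads extended along the chromosome. This comparison was added after the values of the TET genes had been seen, and took the 3 nearest protein-coding genes on either side with at least 100 reads in a library. All 6 neighbours of TET1 were read in both lines, with at least 108 reads in 697 and ratios between -0.75 and 0.18. SLC25A16, a mitochondrial carrier gene 32.8 kb away, had 946 reads in REH and 647 in 697. On the other side, CCAR1, a regulator of cell cycle and apoptosis 26.5 kb away, had 12088 and 10373 reads. The nearest neighbour of TET2, PPA2 (a mitochondrial pyrophosphatase, 89.3 kb away), had 2267 and 1166 reads, with a log2 ratio of 0.52 (0.41 to 0.62). INTS12 and GSTCD, further on, had ratios of 0.03 and 0.11. On the other side of TET2 the closest genes with enough reads were at least 1947 kb off, and of these SLC9B2 had 2 reads in REH and 384 in 697, the opposite of TET2, while BDH2 and CENPE had ratios of -0.15 and -0.997. The copy number of these genes was not measured.

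**Figure D3:**
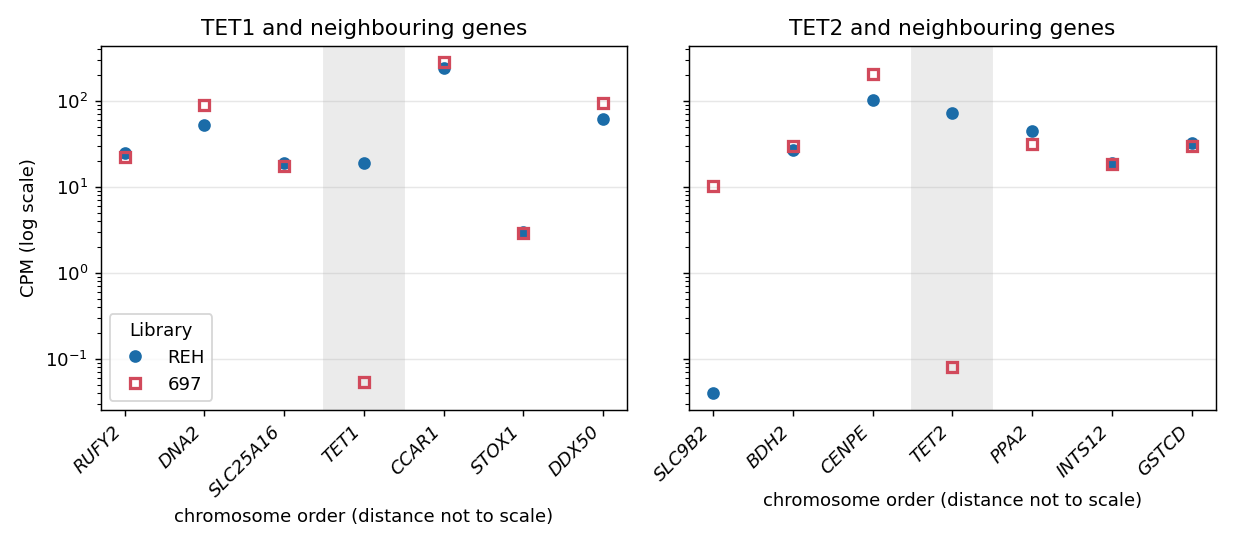
Level (CPM, log scale) of TET1, TET2 and their neighbouring protein-coding genes in chromosome order in REH (filled circles) and 697 (open squares), with distances not to scale; the grey band marks the TET gene. In 697, TET1 at 0.0541 CPM and TET2 at 0.0812 CPM lie below all their neighbours, which range from 2.92 to 281 CPM.

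The methyltransferases were next compared. DNMT1, the maintenance enzyme, had 26759 reads in REH and 22193 in 697, or 532 CPM (526 to 539) and 601 CPM (593 to 609). The log2 ratio was -0.17 (-0.20 to -0.15), a difference beyond counting error but small, and without TMM scaling its sign turned (0.13). DNMT1 lies on chromosome 19 (10133342 to 10231286, minus strand). Its annotated span overlaps S1PR2, a receptor gene on the same strand with 106 and 40 reads. Since DNMT1 is made mostly in dividing cells, genes of DNA synthesis were read beside it. PCNA, the sliding clamp that DNMT1 binds, had a log2 ratio of -0.39, with 338 CPM in REH against 443 CPM in 697. The 6 subunits of the MCM replicative helicase, MCM2 to MCM7, had log2 ratios between -0.78 (MCM7) and -0.07 (MCM5). Of 17 S-phase genes, 0 passed a log2 ratio of 2 in either direction, against 20.7% of all genes tested. Their median was -0.46 (-0.15 without TMM scaling). With TMM scaling all but CCNE1 (1.39) and SLBP (0.71), both named after their values were seen, were below 0, and without it the ratios of DNMT1 and of the S-phase median had opposite signs. A link between these values was not tested.

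DNMT3A, the de novo enzyme often mutated in clonal hematopoiesis, had 6712 reads in REH and 4968 in 697. Its levels of 134 CPM (130 to 137) and 134 CPM (131 to 138) differed by less than counting error, with a log2 ratio of -0.01 (-0.06 to 0.04). Without TMM scaling the ratio became 0.30. The gene is on chromosome 2 (25227855 to 25342590, minus strand), and MIR1301 within it had 0 reads in both libraries.

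DNMT3B, the de novo enzyme mutated in the immunodeficiency, centromeric instability and facial anomalies (ICF) syndrome, had 1126 reads in REH and 1624 in 697. It reached 22.4 CPM (21.1 to 23.7) in REH and 43.96 CPM (41.8 to 46.2) in 697, a 1.96-fold higher level in 697. The log2 ratio was -0.97 (-1.08 to -0.86), the lowest of the 8 genes, and 17.9% of tested genes had a lower one. DNMT3B is on chromosome 20 (32762385 to 32809359, plus strand).

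Per kb of exon, DNMT1 was the highest of the methyltransferases in both lines, at 34.6 CPM per kb in REH and 39.1 in 697. It held 72.8% (72.3% to 73.3%) and 70.7% (70.2% to 71.3%) of the DNMT sum. DNMT3A exceeded DNMT3B by 2.97-fold in REH and by 1.53-fold in 697, so the share of DNMT3B was 6.85% (6.47% to 7.24%) in REH and 11.6% (11.1% to 12.1%) in 697. The DNMT sum was 0.861 times as high in REH as in 697 (47.6 and 55.2 CPM per kb). Set against the TET sum, the DNMT sum was 2.67 times as high in REH and 5.74 times as high in 697. These multiples rest on exon lengths and were not computed per coding length, which changes the levels of both families. These sums count transcripts and say nothing of enzyme activity.

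IDH1 and IDH2, which supply 2-oxoglutarate, were both well expressed. IDH1 had 4051 reads in REH and 2817 in 697, or 80.6 CPM (78.1 to 83.1) and 76.2 CPM (73.5 to 79.1), with a log2 ratio of 0.08 (0.01 to 0.15). IDH2 had 15686 and 17347 reads, or 312 CPM (307 to 317) and 470 CPM (463 to 477), and was 1.505-fold higher in 697 (log2 ratio -0.59, -0.62 to -0.56). IDH2 exceeded IDH1 per kb by 6.53-fold in REH and 10.4-fold in 697. IDH1 lies on chromosome 2 (208236229 to 208266074, minus strand), where IDH1-AS1 overlaps it on the opposite strand with 21 and 12 reads. IDH2 lies on chromosome 15 (90083045 to 90102477, minus strand).

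Across all 8 genes, the order of levels per kb began the same way in both lines, with IDH2, DNMT1 and IDH1. In REH it went on with TET3, DNMT3A, TET2, DNMT3B and TET1, and no neighbours had overlapping counting intervals. Per coding length the order of TET3 and DNMT3A in REH was reversed (27.4 and 48.8 CPM per coding kb), so it rests on the length used. In 697 it went on with DNMT3A, TET3, DNMT3B, TET1 and TET2. There, DNMT3A (9.76 CPM per kb) and TET3 (9.60) did not differ beyond counting error, and between DNMT3B (6.39) and TET1 (0.00563) the level fell away. Exon lengths came from GENCODE 44, which may differ from the gene models that were counted.

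**Figure D4:**
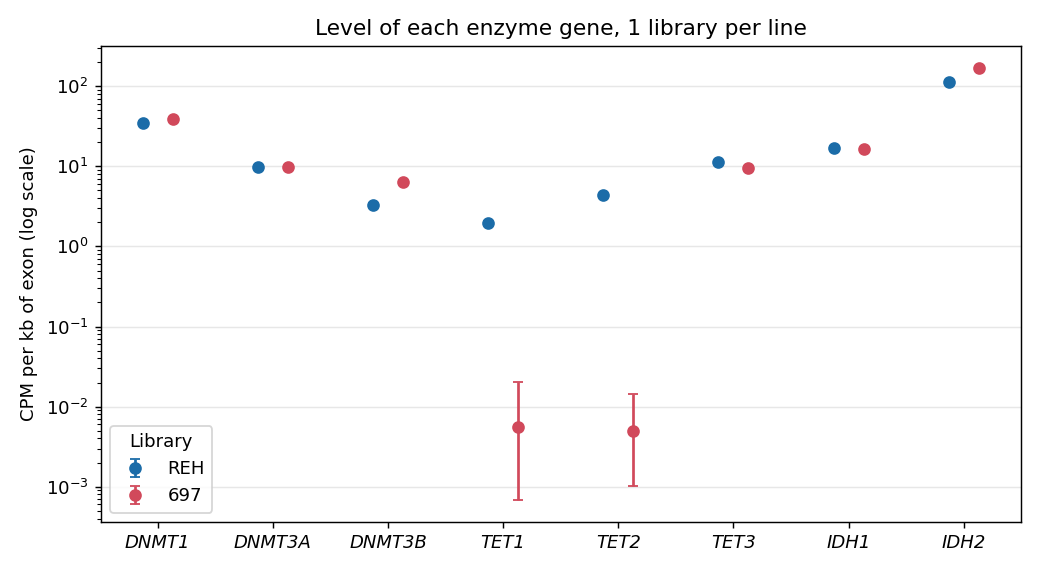
Level of each of the 8 enzyme genes in CPM per kb of exon (log scale) in REH and 697, with points for the library value and bars for the 95% Poisson counting interval. IDH2 is highest in both lines at 112 and 168 CPM per kb, and TET1 and TET2 in 697 fall below 0.01.

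Other genes that act with these enzymes were compared by lists. These were chosen with earlier results of the data known. Of the partners of the methyltransferases, 0 of 8 tested genes passed a log2 ratio of 2, against 20.7% of all genes tested, and too few genes were listed to set them apart from this background. Their ratios ran from -0.83 to 0.76 with a median of 0.16. CDCA7 and HELLS, the remodelling pair mutated in ICF syndrome, had log2 ratios of -0.83 (257 CPM in REH and 458 in 697) and -0.65 (73.5 and 115 CPM). UHRF2, the paralog of UHRF1, had 270 and 243 CPM, a ratio of 0.15. DNMT3L, the inactive cofactor of germ cells, had 63 and 27 reads, and DPPA3, an oocyte inhibitor of UHRF1, had 0 in both.

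Among TET partners and base excision genes, 0 of 12 tested genes passed a log2 ratio of 2, against 20.7% of all genes tested. Their median was 0.08. TDG, the glycosylase that removes the oxidised bases made by TET enzymes, reached 55.8 and 46.2 CPM in REH and 697, a ratio of 0.27 (0.19 to 0.36). NEIL1, another glycosylase, was at 22.7 and 6.79 CPM (1.74, 1.54 to 1.94), and GADD45B, a stress gene linked to demethylation, at 31.9 and 11.1 CPM (1.52, 1.36 to 1.68). OGT, which binds TET proteins and adds sugar groups to them, was abundant in both lines (1012 and 1635 CPM). CXXC4, the neighbour of TET2 whose protein binds TET2, had 1 read in REH and 0 in 697. Of the methyl-CpG readers, 0 of 6 tested genes passed, against the same 20.7%, with a median of 0.37 and the highest ratio, 0.92, for ZBTB4. Both lists are short. CXXC4, ZBTB4, CDCA7, HELLS, UHRF2, DNMT3L, DPPA3, TDG, NEIL1, GADD45B and OGT were named after their values were seen.

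In 2-oxoglutarate metabolism, 1 of 15 tested genes passed a log2 ratio of 2, against 20.7% of all genes tested. This was BCAT1, the cytosolic transaminase that uses 2-oxoglutarate to take up amino groups from branched-chain amino acids. BCAT1 had 24 reads in REH and 29646 in 697, or 0.477 and 802 CPM, with a log2 ratio of -10.69 (-11.36 to -10.14). The 6 neighbours of BCAT1, taken as for the TET genes, had ratios between -2.38 and 0.89. The line with few TET1 and TET2 reads was thus the one with high BCAT1. With 1 library per line, any gene that differs strongly lines up with or against TET1 and TET2, so no relation can be read from this. FH, the fumarase whose loss raises the TET inhibitor fumarate, was 79.6 and 183 CPM (-1.20). The other 13 genes, among them the IDH3 and SDH subunits and both 2-hydroxyglutarate dehydrogenases, did not pass a log2 ratio of 1. The median of the list was -0.24, or 0.07 without TMM scaling.

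The methionine cycle makes S-adenosylmethionine, the methyl donor of the DNMT enzymes. Here 1 of 9 tested genes passed a log2 ratio of 2, against 20.7% of all genes tested. This was MTAP, which salvages methionine from a by-product of polyamine synthesis. MTAP had 2 reads in REH against 2261 in 697, a log2 ratio of -10.27 (-13.63 to -8.73). Its 6 neighbours on chromosome 9 were taken as for the TET genes. Of these, KLHL9, FOCAD, CDKN2A and TUSC1 had 0 reads in REH and 2419, 596, 112 and 1189 reads in 697. Of the outermost, SLC24A2 had 205 reads in REH and 0 in 697, the opposite direction, and CAAP1 had 1764 and 982. MAT2A, the synthase of the methyl donor, was at 430 CPM in REH and 761 in 697 (-0.82), and AHCY, which removes the inhibitory by-product of methylation, at 148 and 351 CPM (-1.24). The median of the list was -0.82. MAT2A, AHCY, FH and the neighbours of MTAP were also named after their values were seen.

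Germline genes that are usually kept silent by promoter methylation in somatic cells were read as a last list. Of 21 genes, 11 had no read in either library and 5 had at least 10 reads in a library. Of these 5, 3 passed a log2 ratio of 2, against 20.7% of all genes tested. So few genes cannot be set apart from this background. TEX19 had 15 reads in REH against 677 in 697, a log2 ratio of -5.89 (-6.79 to -5.21). TEX14 (80 and 10 reads) and HORMAD1 (10 and 1) passed a log2 ratio of 2 in the other direction with few reads. SYCP3 (31 and 16 reads) and STK31 (19 and 49) did not pass, and DAZL and DDX4, germ cell RNA-binding genes, had at most 2 reads. Of these genes only TEX19 was named by the rule on reads, the others after their values were seen.

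**Figure D5:**
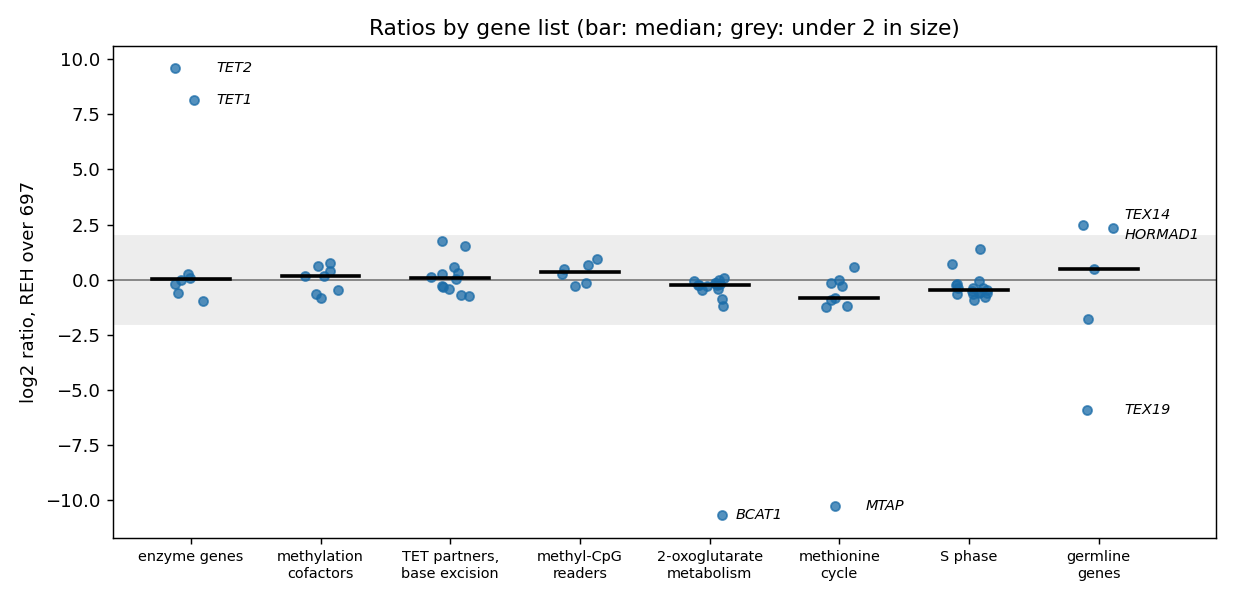
Log2 ratio of REH over 697 (vertical axis) for the enzyme genes and for each tested gene of 7 lists, with points for genes and black bars for the median; the grey band covers ratios under 2 in size. Outside the band and named are TET1, TET2, TEX14 and HORMAD1 above it and BCAT1, MTAP and TEX19 below it.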

How the data were processed

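RNA from REH and 697 cells was sequenced with 1 library per line. According to the methods of the study, the authors used a TruSeq protocol, an Illumina NextSeq instrument and the STAR aligner. The deposited values are raw read counts per gene, neither normalized nor filtered. Reads that mapped to several places were not counted. The methods name hg38 and the submitters' processing notes hg19, the labels name ribodepletion and the methods poly(A) purification, and the annotation release is not given in the sources used here. Counts on either strand were used. Of 57773 gene IDs, 51996 matched GENCODE 44, the source of gene positions (GRCh38) and exon lengths, which are not coordinates of the authors.

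A gene was compared if either library held 10 or more of its reads. Totals were scaled with TMM in edgeR 4.0.16 (R 4.3.3), with factors of 1.11 for REH and 0.899 for 697. Intervals (95%) are Clopper-Pearson for ratios and shares and Poisson for levels, and reflect counting alone, as PCR duplicates share a molecule. The smallest visible level (3 reads) equals 0.0597 CPM for REH and 0.0812 CPM for 697. The study reports DESeq2 results for REH against other cell lines and for lncRNA knockdowns, not for REH against 697. With 1 library per line there were no replicates here, so no p-value is given and every ratio compares these libraries. The members and lists were chosen with earlier results of these data known. By rule, the text names the 9 members, genes overlapping them, PCNA and MCM2 to MCM7, and genes of the other lists past a log2 ratio of 2 with at least 100 reads in a library. Other named genes are marked as named after their values were seen. One listed gene is not reported here, and its list was used without it. With 2 libraries, a likeness of pattern between genes has no meaning, so no gene was named for it. Computations were tested on simulated data. Other software was DESeq2 1.42.0 for size factors, scipy 1.17.1, numpy 2.4.6, matplotlib 3.10.9 and pandas 2.3.3 under Python 3.11.15.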

Additional observations from a re-analysis of the deposited data

How the results depend on the processing

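No paired analysis was possible because REH and 697 were each sequenced once, which also left no replicate to drop. The ratios of TET1 (6.65 to 9.48) and TET2 (8.40 to 9.89) kept their direction and stayed past a log2 ratio of 2 with unscaled totals, DESeq2 size factors, TMM from protein-coding genes, either strand column and 5 added reads. The choice of coding length was added after seeing the data. Lengths from RefSeq proteins were not run.

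Without scaling, the median of all genes moved by 0.31 on the log2 scale, and the ratios became 0.13 for DNMT1, 0.30 for DNMT3A, -0.67 for DNMT3B, 0.55 for TET3, 0.39 for IDH1 and -0.28 for IDH2, so the signs of DNMT1 and DNMT3A depend on scaling. Levels were then multiplied by 1.11 in REH and 0.899 in 697. The list medians became 0.39 for TET partners (1 gene past the threshold), 0.066 for 2-oxoglutarate metabolism and -0.15 for S phase. With DESeq2 size factors the ratio of DNMT1 was -0.20 and that of DNMT3B -1.0. In 1 strand column the ratio of DNMT3B was -1.003 and in the other -0.9. Leaving aside TET1 and TET2 in 697, the CPM of a member moved in the strand columns by factors of at most 0.912 and 0.937 in REH. In 697 these factors were 0.9204 and 0.896. The 2 reads of TET1 in 697 became 0 and 2 in the strand columns, and the 3 reads of TET2 became 1 and 2.

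At 1 read as the minimum, 4411 of all genes passed in favour of 697 and 3592 in favour of REH. The side with more genes thus turned from REH (2396 against 1560) to 697. Of the genes listed, 5 of 21 germline genes and 1 of 14 TET partners passed. The share of all genes at this minimum is not given, so these counts have no background beside them. At 50 reads as the minimum, 1464 genes passed in favour of REH and 1048 in favour of 697. At a log2 ratio of 1, 4293 genes were higher in REH and 3336 in 697, together 39.8% of all genes tested. Past this limit were 3 of 9 tested genes of the methionine cycle, 2 of 15 of 2-oxoglutarate metabolism and 2 of 12 TET partners. So were 1 of 17 S-phase genes and 4 of 5 germline genes. Of the methyltransferase partners and the methyl-CpG readers, 0 of 8 and 0 of 6 passed.

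Per coding length, 2 of the 8 genes changed place in each line, DNMT3A and TET3 in REH and TET1 and TET2 in 697. The DNMT shares were then 65.0% for DNMT1, 29.7% for DNMT3A and 5.32% for DNMT3B in REH, and 64.5%, 26.3% and 9.18% in 697, with TET1 at 6.98% and TET2 at 28.4% of the TET sum in REH. Of reads not divided by length, DNMT1 held 77.3%, DNMT3A 19.4% and DNMT3B 3.25% in REH, DNMT1 77.1% and DNMT3B 5.64% in 697, and TET1 7.91%, TET2 30.5% and TET3 61.6% in REH. Depth limits TET1 and TET2 in 697, where levels under 3 reads cannot be told from 0.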
